A study of Bos taurus with 30 samples.

Results

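The genes described here encode kinases, phosphatases and the subunits, anchors and substrates named after them, as transcripts of bovine peripheral white blood cells (PWBCs). They were taken from the part of the study's annotation table of expressed genes that could be read, which runs in identifier order over 1630 genes, by the words kinase or phosphatase in the gene description. Descriptions that also held zinc finger, ubiquitin, mitochondri or receptor removed 11 of 124 genes, and 1 more was removed because it stands in one of the study's own lists of changed genes. The remaining 112 genes all had a CPM (counts scaled to the total of the library) above 1 in at least 5 of the 30 libraries, as did 14018 of the 27607 genes counted. The annotation table itself holds only genes that the study had kept as expressed, so no gene was lost at this step.

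The blood came from 5 crossbred beef heifers (Angus x Simmental) a little over a year old, whose estrus had been synchronized. Each heifer gave 5 EDTA tubes from the jugular vein, refrigerated for 1, 3, 6, 8 or 24 h before the white cells were collected, and 1 tube from the coccygeal (tail) vein processed at 1 h. Groups used for testing were coccygeal 1 h, jugular 1 h and jugular 24 h, with 5 libraries each from the same animals, named subjects A to E. A further 15 jugular libraries stored for 3, 6 or 8 h are known only as a group, with neither the hour nor the heifer of each, and are given by their lowest, median and highest values. The labels name no other treatment, and every cell preparation is a mixture of leukocyte types after red cell lysis.

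Protein kinases transfer a phosphate group from ATP to serine, threonine or tyrosine residues of other proteins, and phosphatases remove it. Together they carry signals from the surface of a leukocyte to its cytoskeleton, its metabolism and its nucleus. The same names also cover enzymes that act on small molecules, such as the kinases of glycolysis and the kinases and phosphatases of membrane phosphoinositides, and proteins that only hold a kinase in place.

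Libraries held 12412619 to 19492274 counts, and the lowest count of any of the 112 genes in any of the 30 libraries was 11, for PPM1L. Libraries of the 3 tested groups overlapped in total counts and in genes detected (17858 to 19388 genes with a count). Of 12 T lymphocyte markers, 6 had a name in the annotation used here, and their summed level was 474 to 558 CPM in the jugular 1 h libraries, 220 to 407 CPM at 24 h and 495 to 627 CPM in coccygeal blood. All 6 passed the test below as lower at 24 h, but all 6 stand in the study's own lists, which were chosen on these samples. Marker names came from the readable part of the annotation table and from those lists. A marker outside the readable part was therefore named only if the study had listed it as changed. Of 10 monocyte markers 4 were named, with a sum of 330 to 581 CPM at 1 h and 230 to 375 CPM at 24 h, and the 2 that fell (CD14 and VCAN) came from those lists. CD68, which did not, had a log2 fold change of -0.09. The B lymphocyte marker CD79A summed to 439 to 559 CPM at 1 h and 477 to 696 CPM at 24 h. The NK cell pair PRF1 and GZMB summed to 109 to 159 CPM at 1 h and 62.0 to 145 CPM at 24 h, with PRF1 passing as lower. GZMB, from the study's lists, had a log2 fold change of -1.47 and did not pass (edgeR adjusted p = 0.180). Of 9 markers of eosinophils, basophils and mast cells 4 were named, with a sum of 37.6 to 73.4 CPM at 1 h and 33.7 to 70.5 CPM at 24 h, and IL5RA and IL1RL1, the second from the study's lists, passed as lower. CCR3, the most abundant of these 4, had a log2 fold change of 0.16 and did not pass. GATA2, from the study's lists, fell from a mean of 2.94 CPM at 1 h to 0.56 CPM at 24 h (log2 fold change -2.15). Its edgeR adjusted p was 0.00739, and DESeq2 gave no adjusted p. The platelet genes VWF and SELP, both from the study's lists, rose from a sum of 47.6 to 126 CPM to one of 81.0 to 231 CPM. None of 12 neutrophil and 10 red cell markers had a name in the annotation used here, so those cells were not checked. In these bulk samples, fewer cells of a type and less RNA per cell cannot be told apart, and the part of the marker shifts in the results below was not tested.

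At 1 h the 112 transcripts covered a wide range of levels. Per kilobase of the longest annotated transcript, PKM, the pyruvate kinase of the last step of glycolysis, stood highest in jugular blood, at 231 ± 36.7 CPM per kilobase (SD, n = 5). NADK, which makes NADP from NAD, followed at 182 ± 20.4, PGK1, the phosphoglycerate kinase of glycolysis, at 158 ± 14.3, JAK1, a tyrosine kinase of cytokine signaling, at 134 ± 3.14, and PPP2CA, a catalytic subunit of protein phosphatase 2A, at 114 ± 16.4 CPM per kilobase. The ranges over subjects overlapped between PKM (199 to 291) and NADK (148 to 200), between NADK and PGK1 (141 to 174), and between JAK1 (131 to 139) and PPP2CA (95.1 to 139), so those neighbours are not ordered beyond their spread, whereas PGK1 and JAK1 did not overlap. The lowest level, named after the values were seen, belonged to HYKK, a hydroxylysine kinase, at 0.730 ± 0.236 CPM per kilobase.

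In jugular blood at 1 h, heifers differed from each other most in MARCKS, PRKRA and AURKC, by the ratio of the highest to the lowest heifer (3.48, 3.10 and 2.68). These genes were singled out after their values at 1 h were seen and are given as a description. MARCKS, a membrane-bound substrate of protein kinase C, was at 89.4, 29.5, 25.7, 46.2 and 34.8 CPM in jugular 1 h blood of subjects A to E, and at 92.7, 24.8, 42.6, 48.5 and 28.5 CPM in their coccygeal blood. Subject A was highest in both veins, while subject C was higher in coccygeal blood by 0.73 on the log2 scale. MARCKS did not keep these levels with storage. The 24 h minus 1 h log2 ratios were -1.51, 0.49, 0.65, -1.10 and 0.31 in subjects A to E. Its log2 fold change at 24 h was -0.24 ± 0.40 (SE). AURKC, an aurora kinase of cell division, was at 11.3, 14.9, 22.2, 30.3 and 15.4 CPM in jugular 1 h blood and at 12.2, 14.95, 21.6, 31.0 and 17.0 CPM in coccygeal blood, so that the order of the 5 heifers was the same in both veins. PRKRA, an activator of the double-stranded RNA kinase, was at 5.85, 1.89, 5.87, 1.92 and 5.48 CPM in jugular blood, with subjects B and D low, and at 4.63, 2.49, 4.58, 1.85 and 7.08 CPM in coccygeal blood, with the same 2 subjects low. JAK1 varied least, with the highest heifer 1.06 times the lowest in jugular blood and again 1.06 times in coccygeal blood.

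The first comparison asked whether storage for 24 h moved these transcripts from their 1 h level in the same animals. RNA integrity was not equal in these groups. The paper reports it as lower after the longest storage than after the shortest, with read coverage along transcripts that was similar at both times. The part of RNA integrity in the storage changes, and in their correlations with gene span and transcript length below, was not tested. A gene passed when the Benjamini-Hochberg adjusted p was under 0.05 in both edgeR and DESeq2, adjusted over all 14018 genes. Of the 112 genes, 15 passed (13.4%), against 9.28% of all genes tested. Higher at 24 h were 7 of them (6.25%, against 4.77% of all genes) and lower were 8 (7.14%, against 4.52%). Without subject A, B, D or E the count of 15 became 6, 7, 9 or 7, and without subject C it was 13. Without the heifer in the model, only STK4 passed. The changes were small. No member reached the study's added threshold of 0.5 on the log2 scale in either direction, against 2.58% of all genes, and this count is partly fixed because genes of the study's lists had been left out. The log2 fold changes of the 112 genes ran from -0.40 to 0.47 with a median of -0.03, against 0.01 for all genes tested. They were above 0 for 42.0% of the 112 genes and for 51.9% of all genes. The median absolute change was 0.14, the same as for all genes (0.14).

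Storage left 39 of the 112 genes moved the same way in all 5 heifers (34.8%, against 26.0% of all genes), 16 of them higher and 23 lower. Among all 14018 genes, 1728 were higher and 1914 lower in all 5 heifers. The 5 values at 24 h lay entirely outside the 5 values at 1 h for 6 genes (5.36%, against 3.90% of all genes), and each of these 6 was lower at 24 h. Over all genes, such separation was higher at 24 h for 202 and lower for 345.

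**Figure D1:**
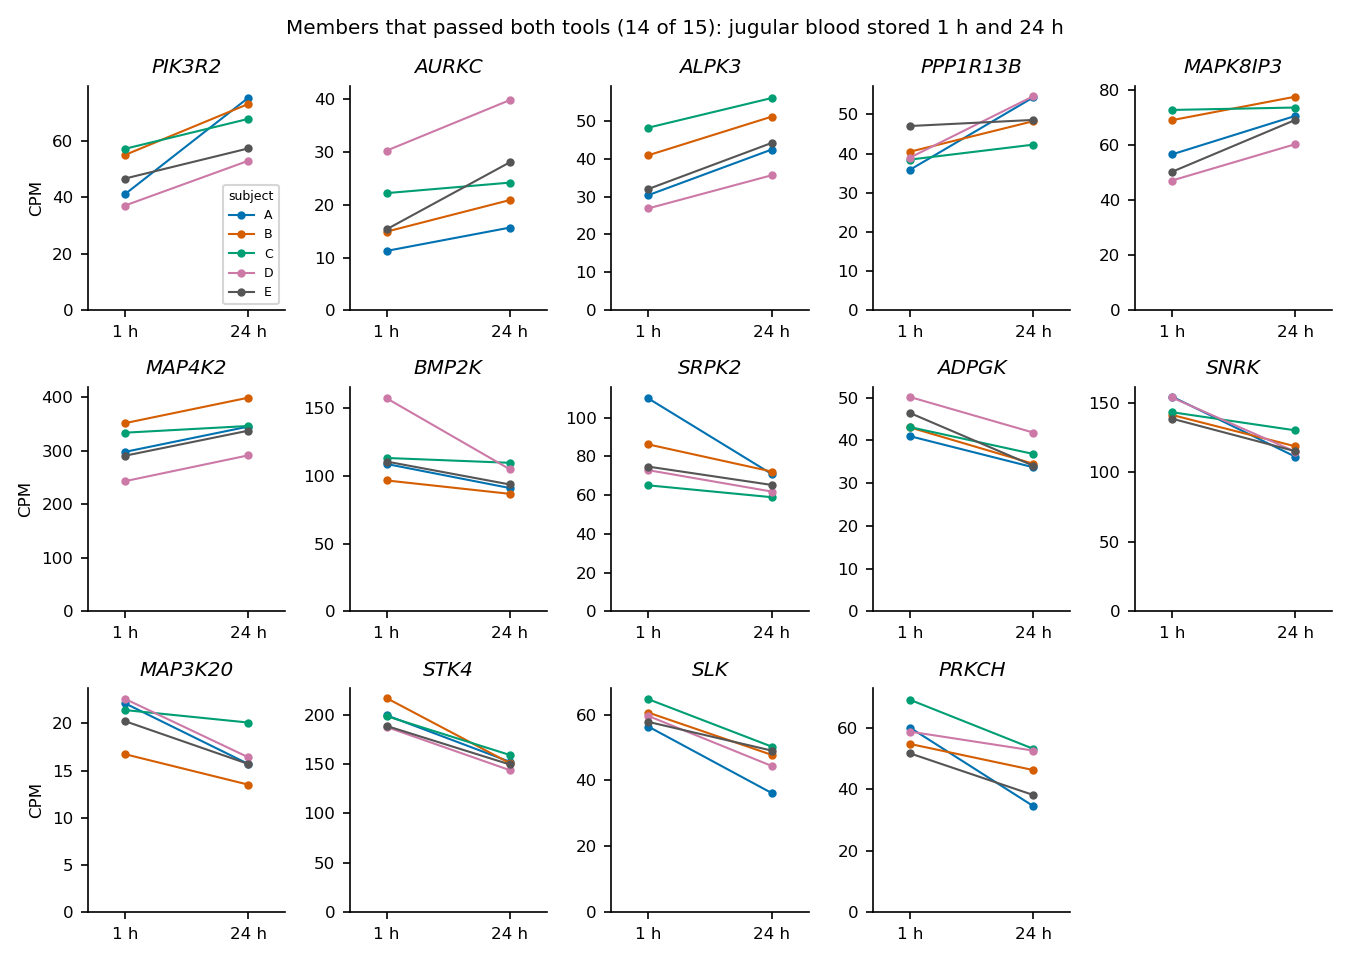
CPM (linear axis from 0) of 14 of the 15 genes that passed both tools, in jugular blood stored 1 h and 24 h, with 1 line per subject and panels ordered from the largest rise to the largest fall. Every line rises in the first 6 panels and falls in the last 8, and STK4, SLK and SNRK are the 3 panels in which the 1 h and 24 h points do not overlap.

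The Hippo kinase STK4 (MST1), a STE20 kinase that lymphocytes need for survival and trafficking, changed most evenly. It was at 199, 217, 198, 187 and 188 CPM at 1 h and at 152, 151, 159, 144 and 150 CPM at 24 h in subjects A to E. All 5 values at 24 h lay below all 5 at 1 h, and each heifer fell by between 0.32 and 0.52 on the log2 scale. The transcript fell by 23.6% (log2 fold change -0.39 ± 0.05 SE, edgeR adjusted p = 0.00371). The gene lies at chr13:73371418-73458717, plus strand, in the ARS-UCD1.2 assembly.

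SLK, a second STE20 kinase, which acts on the cytoskeleton, was at 56.3, 60.6, 64.6, 59.6 and 57.8 CPM at 1 h and at 36.2, 47.8, 50.3, 44.4 and 49.1 CPM at 24 h. Again no 24 h value reached the lowest 1 h value. The transcript fell by 24.2% (log2 fold change -0.40 ± 0.07 SE, edgeR adjusted p = 0.00809). With STK4 it was the only pair to pass among 13 tyrosine kinases, STE20 kinases and their adaptors. That list had 10 log2 fold changes below 0 and 3 above 0, whereas 51.9% of all genes were above 0. Its median was -0.10, against 0.01 for all genes.

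Elsewhere in that list JAK1 was at 682, 665, 666, 686 and 704 CPM at 1 h and at 602, 611, 630, 622 and 585 CPM at 24 h. The groups did not overlap, but the log2 fold change of -0.16 ± 0.05 (SE) missed the threshold (edgeR adjusted p = 0.0780). The adaptor SH3KBP1 behaved likewise, at 122 to 133 CPM and then 101 to 118 CPM (log2 fold change -0.18 ± 0.06 SE, edgeR adjusted p = 0.0659). Outside that list, among the other metabolite kinases, SHPK, the sedoheptulose kinase next to the pentose phosphate pathway, was also separate. It was at 12.1 to 14.02 CPM and then 8.52 to 11.2 CPM. SHPK passed in edgeR (log2 fold change -0.36 ± 0.10 SE, adjusted p = 0.0374) but not in DESeq2 (adjusted p = 0.101). SH3KBP1 and SHPK were named after their values were seen, because their groups did not overlap.

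**Figure D2:**
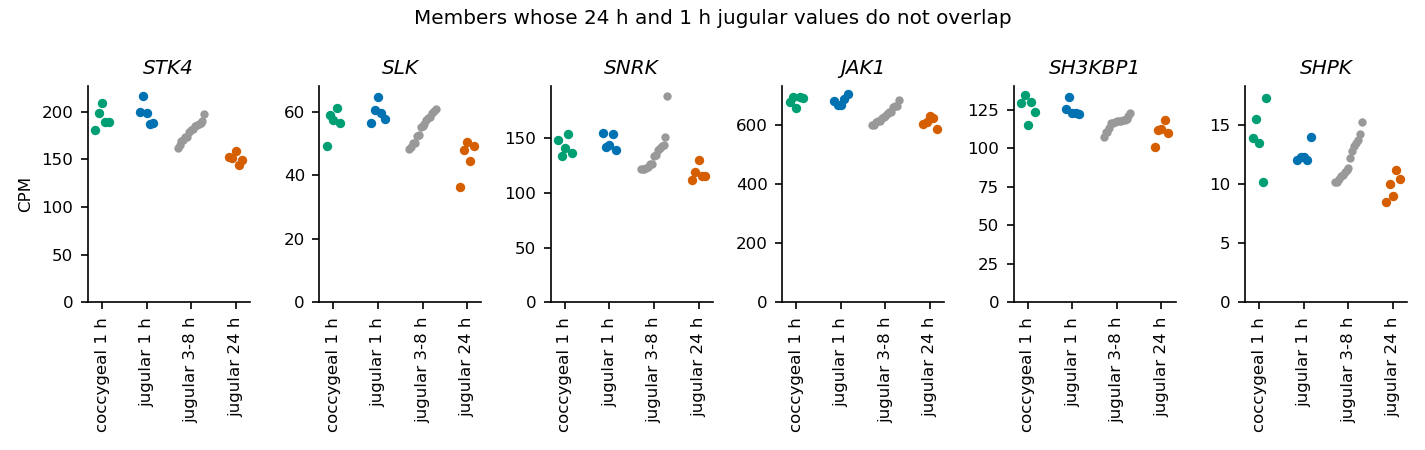
CPM (linear axis from 0) of the 6 genes whose jugular 24 h values (orange, n = 5) lay below all jugular 1 h values (blue, n = 5), with coccygeal 1 h values (green, n = 5) and the 15 jugular libraries stored 3 to 8 h (grey, sorted by value). STK4 ran from 187 to 217 CPM at 1 h and from 144 to 159 CPM at 24 h, and the grey points lie from 162 to 197 CPM.

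Among kinases that sense energy or calcium, SNRK, a relative of the AMP-activated kinase, was at 155, 141, 143, 154 and 139 CPM at 1 h and at 111, 119, 130, 115 and 115 CPM at 24 h. These groups did not overlap either, and the log2 fold change was -0.31 ± 0.06 (SE, edgeR adjusted p = 0.0130). It was the 1 gene of 9 to pass in its list, which had a median of -0.00. PRKAA1, a catalytic subunit of the AMP-activated kinase itself, was at 58.5 to 80.2 CPM and then 51.4 to 82.2 CPM, with a log2 fold change of -0.14 ± 0.09 (SE), which was -0.05 without subject D. TSSK4, of the same list and named after its value was seen, had the highest log2 fold change of the 112 genes, 0.47 ± 0.17 (SE), and did not pass (edgeR adjusted p = 0.106).

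Protein kinase C eta, PRKCH, which is abundant in T lymphocytes, was at 60.1, 54.8, 69.1, 58.8 and 51.7 CPM at 1 h and at 34.6, 46.3, 53.2, 52.6 and 38.2 CPM at 24 h. It was lower in 5 of 5 heifers, although the groups overlapped (log2 fold change -0.40 ± 0.09 SE, edgeR adjusted p = 0.0189), and it did not pass without subject E. The summed T lymphocyte markers fell over the same interval, as given above, but all 6 come from the study's lists of changed genes. The part of T lymphocytes in the PRKCH change was not tested. PRKCH was the 1 gene of 8 to pass in the list of PKC, PKD, AKT and related kinases. Its relative PRKCA had a log2 fold change of -0.32 ± 0.12 (SE, edgeR adjusted p = 0.102), while PRKCI (-0.02), PRKD3 (0.02), the AKT kinase AKT2 (0.03) and MAST3 (-0.03) lay near 0. The ribosomal S6 kinase RPS6KA6 was at 21.1 to 38.6 CPM and then 23.8 to 42.9 CPM, higher in 5 of 5 heifers without passing (log2 fold change 0.32 ± 0.10 SE, edgeR adjusted p = 0.0725). RPS6KC1 was at 24.3 to 27.9 CPM and then 18.6 to 29.0 CPM.

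The mitogen-activated protein kinase (MAPK) cascades pass a signal from a MAP4K or MAP3K to a MAP2K and on to a MAPK. Of 9 such genes, 2 rose, 1 fell and 6 did not pass, with a list median of 0.02. MAP3K20, a MAP3K activated by stalled ribosomes, was at 22.1, 16.7, 21.4, 22.6 and 20.2 CPM at 1 h and at 15.7, 13.5, 20.1, 16.4 and 15.7 CPM at 24 h. All 5 heifers were lower (log2 fold change -0.34 ± 0.08 SE, edgeR adjusted p = 0.0282, DESeq2 adjusted p = 0.0497). MAP4K2, the germinal center kinase at the top of a JNK cascade, rose by 13.7% from 243 to 352 CPM to 291 to 399 CPM (log2 fold change 0.18 ± 0.05 SE, edgeR adjusted p = 0.0477). MAPK8IP3, a JNK scaffold, rose by 19.8% from 47.2 to 72.9 CPM to 60.4 to 77.7 CPM (log2 fold change 0.26 ± 0.07 SE, edgeR adjusted p = 0.0408). With 1 heifer left out, MAP4K2 did not pass in any of the 5 fits, and MAP3K20 and MAPK8IP3 passed only without subject C.

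The other members of the cascades did not pass. The MEK5 and ERK5 pair, MAP2K5 and MAPK7, had log2 fold changes of 0.02 ± 0.07 and -0.01 ± 0.08 (SE), which places both close to no change. MAP2K6, which activates p38, was at -0.17 ± 0.11. MAP3K7 (TAK1) was at -0.04 ± 0.06, TAOK1 at 0.02 ± 0.07 and the scaffold MAPK8IP1, present at only 2.09 to 2.94 CPM at 1 h, at 0.08 ± 0.18.

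The largest rise that passed belonged to PIK3R2, a regulatory subunit of phosphoinositide 3-kinase. It was at 41.0, 54.9, 57.1, 37.0 and 46.6 CPM at 1 h and at 75.0, 72.9, 67.6, 52.8 and 57.2 CPM at 24 h. Every heifer was higher, by between 0.24 and 0.87 on the log2 scale, and the groups overlapped (rise of 38.3%, log2 fold change 0.47 ± 0.09 SE, edgeR adjusted p = 0.0113). The gene lies at chr7:5060769-5073385, minus strand, 1138 bases from MAST3, which is on the same strand and did not pass. PIK3R2 was the 1 gene of 9 to pass among enzymes of phosphoinositides, inositol and lipids. In that list 7 log2 fold changes were above 0 and 2 below 0, beside 51.9% of all genes above 0. The list median was 0.09.

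In the list of nuclear and cell-cycle kinases 2 of 12 genes passed as higher and 1 as lower, against 4.77% and 4.52% of all genes. Its log2 fold changes were above 0 for 3 genes and below 0 for 9, with a median of -0.07, whereas 51.9% of all genes were above 0. AURKC was at 11.3, 14.9, 22.2, 30.3 and 15.4 CPM at 1 h and at 15.7, 20.9, 24.2, 39.9 and 28.1 CPM at 24 h. It was higher in each heifer, against a spread between heifers that was wider than the change (log2 fold change 0.46 ± 0.10 SE, edgeR adjusted p = 0.0179). SRPK2, a kinase of splicing factors, fell by 18.5% from 65.0 to 110 CPM to 58.9 to 72.2 CPM (log2 fold change -0.29 ± 0.08 SE, edgeR adjusted p = 0.0320). The log2 ratio was -0.63 in subject A and -0.14 to -0.25 in the others. Between veins at 1 h, coccygeal minus jugular, SRPK2 was at -0.46 in subject A and 0.46 in subject C. AURKC did not pass without subject A, B or E, and SRPK2 did not pass without A, B, D or E. AURKB, the aurora kinase of the mitotic spindle, was at 15.2 to 19.8 CPM and then 12.9 to 21.7 CPM (log2 fold change -0.03 ± 0.08 SE), and ATM, the kinase of the DNA double-strand break response, at 98.7 to 144 CPM and then 96.9 to 136 CPM (-0.01 ± 0.08).

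Of the 7 atypical or other protein kinases, ALPK3 rose and BMP2K fell. ALPK3, an alpha kinase known from heart muscle, was at 30.4, 40.9, 48.1, 26.9 and 32.0 CPM at 1 h and at 42.4, 51.0, 55.9, 35.6 and 44.1 CPM at 24 h. The 5 heifers kept the same order while each rose by 0.22 to 0.48 on the log2 scale (log2 fold change 0.37 ± 0.07 SE, edgeR adjusted p = 0.00898). BMP2K, a regulator of endocytosis, was at 109, 96.5, 113, 157 and 110 CPM and then at 90.9, 86.7, 110, 105 and 93.6 CPM, with subject D the highest at 1 h (log2 fold change -0.26 ± 0.07 SE, edgeR adjusted p = 0.0496). BMP2K passed in only 4 of 14 other fits, and among those that left out 1 heifer only without subject C. Its log2 fold change was -0.17 without subject D.

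**Figure D3:**
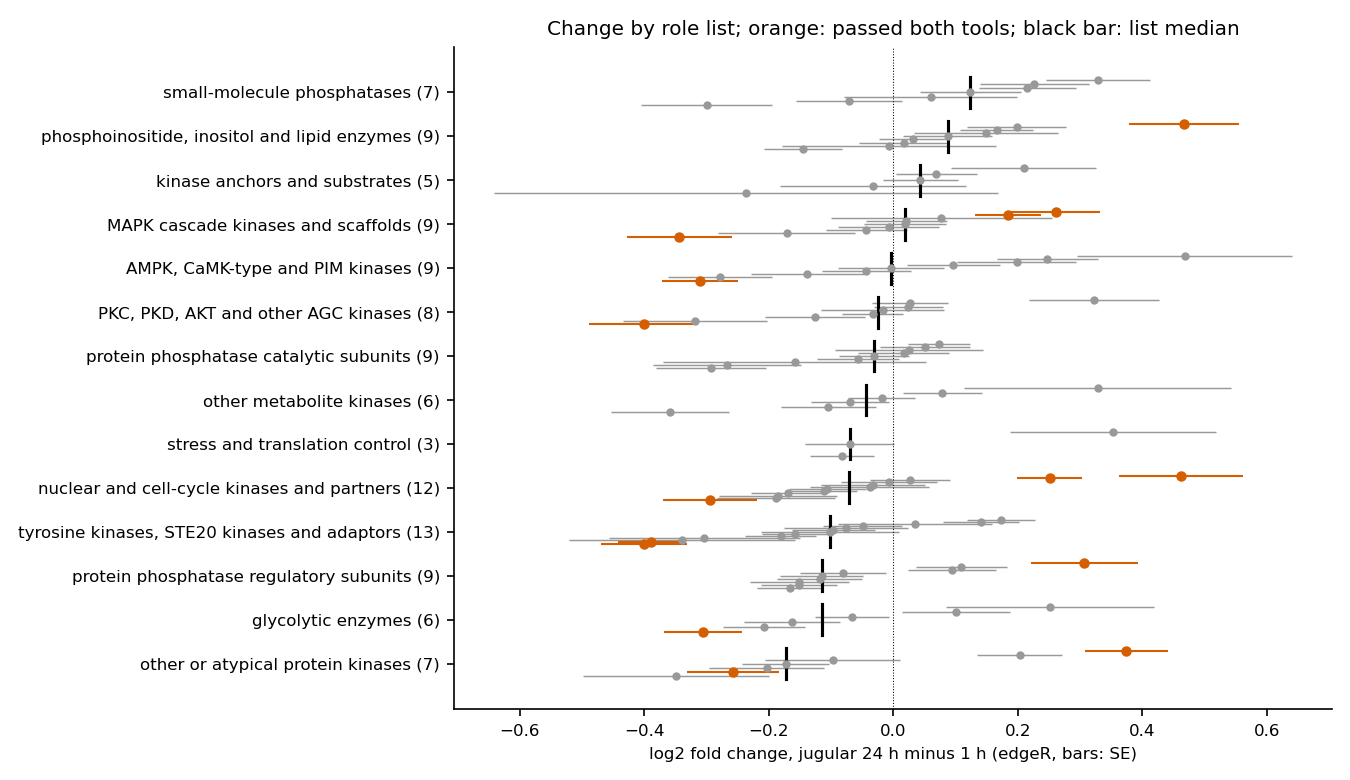
edgeR log2 fold change of each of the 112 genes, jugular 24 h minus 1 h (bars, SE), by role list with the number of genes in brackets, ordered by list median (black bar). Orange marks the 15 genes that passed both tools, which lie in 9 of the 14 lists, and list medians run from -0.17 to 0.12.

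Glycolysis was represented by 6 genes, of which 1 fell and 5 did not pass (list median -0.11). ADPGK, an ADP-dependent glucokinase, was at 41.0, 43.0, 43.1, 50.2 and 46.4 CPM at 1 h and at 33.7, 34.5, 36.8, 41.8 and 34.1 CPM at 24 h. All 5 heifers fell, by 0.23 to 0.44 on the log2 scale (log2 fold change -0.31 ± 0.06 SE, edgeR adjusted p = 0.0151), and ADPGK did not pass without subject A, B or E. PGK1 was at 256 to 314 CPM and then 224 to 271 CPM, lower in each heifer, and passed in DESeq2 (adjusted p = 0.0492) but not in edgeR (log2 fold change -0.21 ± 0.07 SE, adjusted p = 0.0664). The annotated span of PGK1 overlaps that of TAF9B on the other strand by 11136 bases, and reads were counted without regard to strand. Whether their exons overlap was not checked. PKM had a log2 fold change of -0.16 ± 0.08 (SE), which was -0.08 without subject A. The phosphofructokinases PFKP and PFKM were at -0.07 ± 0.06 and 0.25 ± 0.17, the last at only 2.34 to 4.89 CPM at 1 h and at 0.10 without subject E, and the regulator PFKFB2 was at 0.10 ± 0.09.

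None of 9 genes listed as catalytic subunits of protein phosphatases passed (list median -0.03). The list also holds RNGTT, an RNA guanylyltransferase and phosphatase that acts on RNA. PPP2CA was at 208, 182, 226, 266 and 204 CPM at 1 h and at 185, 205, 233, 227 and 191 CPM at 24 h, higher in 2 heifers and lower in 3 (log2 fold change -0.06 ± 0.07 SE). Of 9 regulatory subunits, PPP1R13B, an ASPP protein that binds protein phosphatase 1 and p53, was the 1 gene to pass. It rose by 23.7% from 35.9 to 47.1 CPM to 42.3 to 54.6 CPM (log2 fold change 0.31 ± 0.09 SE, edgeR adjusted p = 0.0444), but did not pass when any 1 of the 5 heifers was left out. The list median was -0.11, and 6 of the 9 log2 fold changes were below 0, whereas 51.9% of all genes were above 0.

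Stress control of translation was read through EIF2AK3 (PERK), the kinase of unfolded proteins in the endoplasmic reticulum, PRKRA and PPP1R15A (GADD34), which directs a phosphatase back to the translation factor eIF2. None of these 3 genes passed. EIF2AK3 was at 100 to 117 CPM and then 91.5 to 111 CPM (log2 fold change -0.08 ± 0.05 SE), and PPP1R15A at 37.2 to 51.7 CPM and then 37.0 to 48.5 CPM (-0.07 ± 0.07). PRKRA had 0.35 ± 0.17 from 1.89 to 5.87 CPM. Nor did any gene pass among 5 kinase anchors and substrates (list median 0.04), 6 other metabolite kinases (-0.04) and 7 small-molecule phosphatases (0.12). NADK was at 297 to 401 CPM and then 308 to 391 CPM (log2 fold change -0.02 ± 0.05 SE).

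In the 15 jugular libraries stored for 3 to 8 h, the median of each of the 15 genes that passed lay between the 1 h and the 24 h medians. The same held for 91.2% of the 1301 genes that passed over the whole table, and since those genes were chosen for a gap between 1 h and 24 h, libraries of intermediate age tend to fall inside it. For STK4 the 3 to 8 h libraries ran from 162 to 197 CPM with a median of 180 CPM, so that the median lay below every 1 h value and the lowest library above every 24 h value. SLK ran from 48.3 to 61.0 CPM (median 55.6) and PIK3R2 from 34.7 to 71.8 CPM (median 56.2), overlapping both ends. SNRK ran from 121 to 188 CPM, with its highest library above every 1 h value.

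The second comparison asked whether the vein mattered, with coccygeal and jugular blood of the same heifers both processed at 1 h. Of the 112 genes 0 passed, against 0% of all 14018 genes in both tools. At an unadjusted edgeR p under 0.05, 0 of the 112 genes and 278 of all genes (1.98%) were found, and DESeq2 gave 101 of all genes. The log2 fold changes of the 112 genes ran from -0.16 to 0.25 with a median of -0.01, and the median absolute change was 0.05, against 0.06 for all genes. Their median SE was 0.08, the same as for the 24 h comparison (0.08), and the highest was 0.25.

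JAKMIP3, a protein that binds Janus kinases, had the lowest p of the 112 genes between veins. It was at 6.26, 7.63, 8.61, 4.35 and 4.75 CPM in jugular blood and at 7.23, 9.91, 8.00, 5.43 and 6.36 CPM in coccygeal blood, which was higher in 4 of 5 heifers (log2 fold change 0.24 ± 0.12 SE, edgeR adjusted p = 1.00). MOB3B, a MOB kinase activator, was higher in coccygeal blood in 5 of 5 heifers by 0.02 to 0.48 on the log2 scale, and PRKD3, a protein kinase D, was at -0.11 ± 0.06. Direction was shared by all 5 heifers for 3 genes (2.68%, against 3.97% of all genes). MOB3B and MAPK8IP1 were higher in coccygeal blood, and SNRK was lower. STK4, SLK and SNRK, which fell with storage, had log2 fold changes between veins of -0.04 ± 0.06, -0.08 ± 0.07 and -0.04 ± 0.05 (SE). Both comparisons use the same jugular 1 h libraries.

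**Figure D4:**
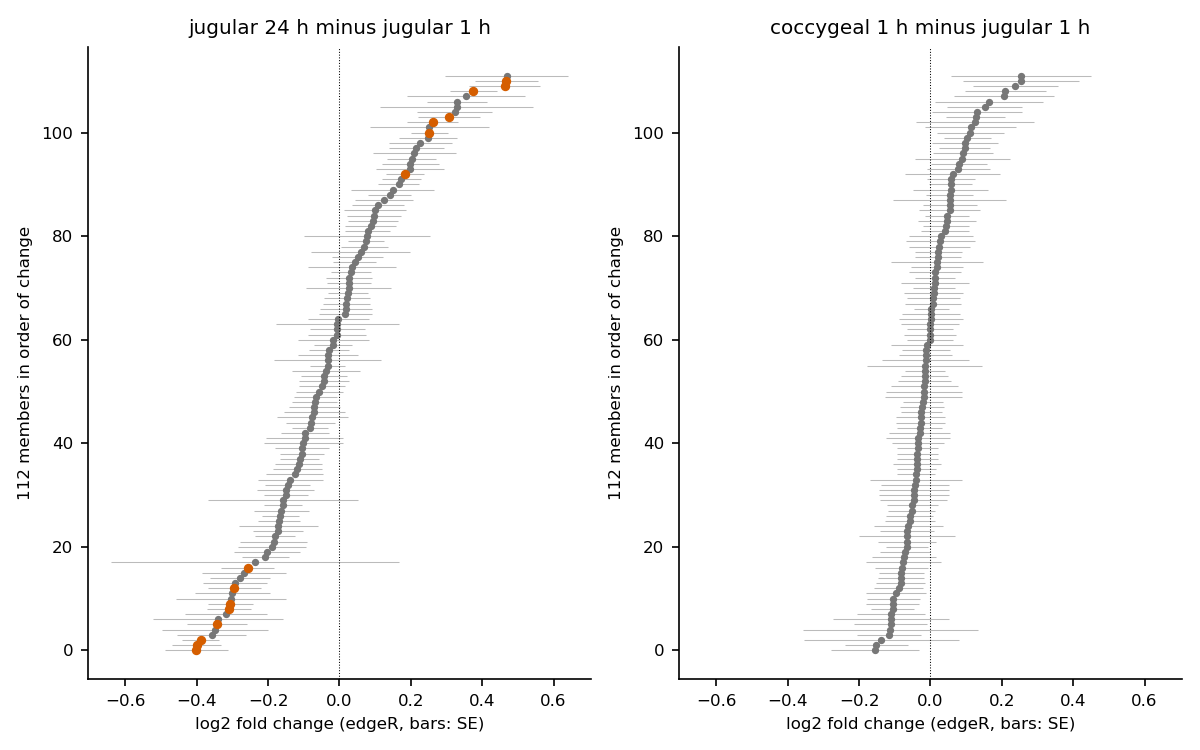
edgeR log2 fold changes of the 112 genes (points, with SE bars) in order of size for jugular 24 h minus 1 h (left) and for coccygeal minus jugular at 1 h (right), on 1 shared axis. The left panel spans -0.40 to 0.47 with 15 genes passing both tools (orange), and the right panel spans -0.16 to 0.25 with none. The jugular 1 h libraries enter both panels.

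A further description concerns a property that had no part in the choice of the genes, the span of the gene on the chromosome from its annotated start to its end. The 8 that fell spanned 32.6 to 239 kb (median 103 kb), and the 7 that rose spanned 4.08 to 82.4 kb (median 12.9 kb), around a median of 40.4 kb for all 112. Across the 112 genes the Spearman correlation of span with the 24 h log2 fold change was -0.37 (Pearson -0.36 on log span), and it was below 0 in each of the 5 heifers, from -0.23 to -0.31. Over the 1630 annotated genes it was -0.26. Between the veins the same correlation was -0.25 over the 112 genes and -0.31 over the 1630, with the jugular 1 h libraries in both comparisons. Longest transcript length gave -0.12 and -0.15 with the 24 h change. Genes of 1 library share its depth and RNA, so these correlations describe the libraries and carry no p.

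**Figure D5:**
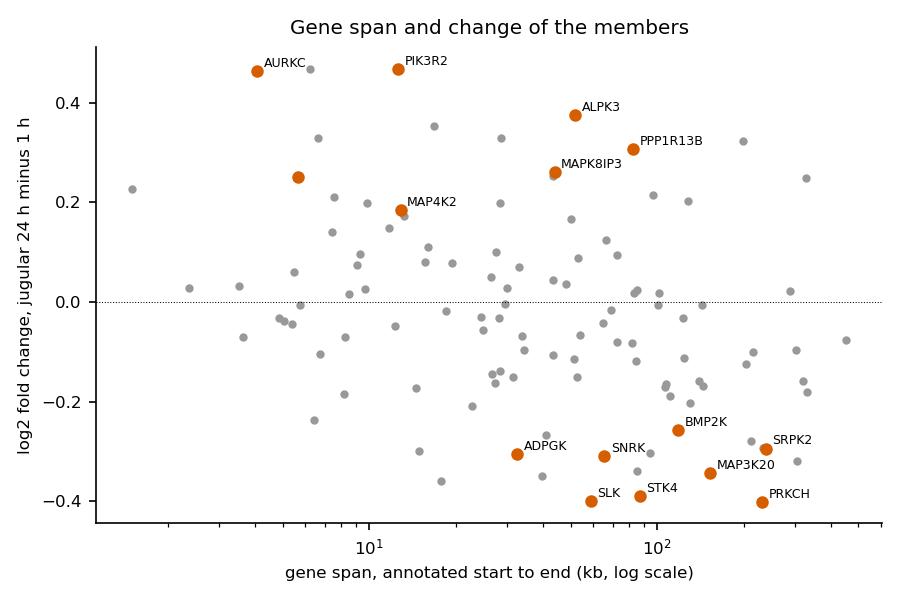
Gene span in kb (log axis) against the edgeR log2 fold change, jugular 24 h minus 1 h, for the 112 genes, with the 15 that passed both tools in orange. AURKC, PIK3R2 and MAP4K2, which rose, lie at the short end, and PRKCH, SRPK2, MAP3K20 and BMP2K, which fell, at the long end. The spans overlap, as PPP1R13B, which rose, spans 82.4 kb and ADPGK, which fell, 32.6 kb (Spearman correlation -0.37, n = 112 genes).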

How the data were processed

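RNA-seq read counts from 30 libraries of bovine PWBCs were used. Per the labels and the study's methods, the authors trimmed reads (cutadapt 2.8), aligned them to ARS-UCD1.2 (HISAT2 2.2.0), filtered them (SAMtools 1.10), removed duplicates and deposited raw counts per Ensembl gene (featureCounts, Subread 2.0.1, strand ignored). Columns were assigned to groups and heifers from the study's code, and the 15 libraries of 3 to 8 h by elimination. Names, descriptions, lengths and coordinates came from the study's annotation table, and further marker names from the study's lists of changed genes.

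Genes with CPM > 1 in at least 5 of 30 libraries were tested in 10 libraries per comparison with edgeR 4.0.16 (quasi-likelihood, robust, older fitting method, library-size scaling) and DESeq2 1.42.0 (Wald) in R 4.3.3, with the heifer as a block as in the study's code. Heifers paired the libraries: deviations from group means correlated at 0.53 to 0.67 (1 h with 24 h) and 0.44 to 0.82 (veins). The SE is the absolute log2 fold change over the root of F. Per-heifer ratios used a prior count of 2. All libraries of a group differed by more than sampling noise. The code was tested on simulated data.

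Named genes were up to 8 of the largest rises (7 passed) and of the largest falls that passed, the MAPK, AGC, glycolytic and stress lists, the 5 highest levels, the 3 lowest p between veins, JAK1, STK4, ATM, PPP2CA, PRKAA1 and AURKB. Some genes under these rules are not reported here. Members, lists and rules were chosen with earlier results of these data known.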

Additional observations from a re-analysis of the deposited data

Results flagged for a closer look

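In 135 groups of 5 values (45 named genes in 3 groups), 5 held 1 subject set apart from the other 4 by Dixon's 95% critical value. Chance alone sets apart about 1 in 20 groups. Subject C was that subject in 4 of the 5. Its values were the highest for MAP3K7 at 24 h (74.7 CPM, next 61.5 CPM), PFKP at 24 h (153 CPM, next 130.4 CPM), PRKCI at 24 h (27.5 CPM, next 14.3 CPM) and RPS6KA6 at 1 h (38.6 CPM, next 24.2 CPM). For BMP2K, subject D was the highest at 1 h (157 CPM, next 113 CPM).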

How the results depend on the processing

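Without the replicate block (the heifer left out of the model), 1 of the 112 genes passed at 24 h, STK4, and 44 of all genes. Leaving out each heifer in turn gave 6 to 13 of the 112 genes (6 without A, 7 without B, 13 without C, 9 without D, 7 without E), 0 to 2 genes past the fold threshold, and 584 to 1044 of all genes, with fewer libraries in each fit. At a fold threshold of 0.25, 14 of the 112 genes passed. STK4 passed under each of 14 other fits, ALPK3, SLK, SNRK and PIK3R2 under 13, PRKCH under 12, AURKC and ADPGK under 10, SRPK2 and MAPK8IP3 under 8, PPP1R13B under 7, MAP4K2 and MAP3K20 under 6 and BMP2K under 4. Other normalization, filters, dispersion settings, a fit of 15 libraries and DESeq2 filtering gave 11 to 16 of the 112 genes, edgeR alone 17 and DESeq2 alone 18. Between the veins the count stayed at 0 in every fit. Genes near 0 changed sign: PRKCI was 0.0041 without the replicate block, and leaving out 1 heifer gave -0.0288 to 0.0642 for AKT2, -0.0822 to 0.0650 for ATM, -0.0760 to 0.0224 for AURKB, -0.0846 to 0.00468 for MAP3K7, -0.0601 to 0.0167 for MAPK7, -0.0513 to 0.170 for MAPK8IP1, -0.0434 to 0.00622 for NADK, -0.0892 to 0.0428 for PRKCI, -0.00441 to 0.0603 for PRKD3 and -0.0149 to 0.0523 for TAOK1. The cause was not tested. Per-gene precision rests on 5 heifers, and p-values cover 1 tube per heifer and time.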
